A study of Drosophila melanogaster with 23 samples.

Results

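Named genes of chromosome 4 of Drosophila melanogaster were followed in RNA-seq libraries of isolated hearts. Of 41 gene symbols listed, 40 were found in both deposited count tables, and the 39 that had at least 10 counts in at least 4 libraries of each table were kept, out of 17104 symbols in all. Among the 41 listed symbols, the members were thus chosen by their counts, and this count rule took no regard of group. The list itself was chosen with earlier results of these data known. The shares of members called below are therefore not independent of those results. The gene toy, an eyeless paralogue, was found but not kept, with 10 counts or more in 0 of the w1118 libraries and in 1 library of the other table. Just inside were dati, which reached 10 counts in 4 w1118 libraries and 5 libraries of the other table, and ey, which did so in 4 and 12. The symbol Caps was in neither table and is listed in RefSeq as a synonym of Cadps, which is a member. All 39 lie on chromosome 4 in the BDGP6.54 annotation, between positions 32478 and 1271759, and they are part of the 104 genes of that chromosome found in the tables.

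Chromosome 4 is the smallest chromosome of the fly and an unusual one: much of it is packed as heterochromatin, yet its genes are transcribed. The heterochromatin protein HP1a covers the chromosome together with methylated histone laid down there mainly by the methyltransferase encoded by egg. A chromosome-specific protein, Pof, binds its active genes and raises their output. The members encode, among others, the Hedgehog effector ci, the Wingless pathway factors pan and lgs, Activin-type ligands, plexins, and proteins that prime or trigger vesicle release.

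The study compared hearts of a pair of control strains at different ages and hearts with knockdown of Lamin C, a nuclear lamina protein. The groups were attp2 at 5 weeks (n = 5), LamC RNAi at 1 week (n = 5) and attp2 at 1 week (n = 5), counted in one table, and w1118 at 5 weeks (n = 4) and w1118 at 1 week (n = 4), counted in another. The RNAi was driven in the heart by the promoter of Hand. The labels give the RNAi flies as attp2 with LamC iR and name no driver or construct for the attp2 controls, so the RNAi and its transgenes cannot be told apart. They do not say whether the libraries of a group came from separate animals or pools. p-values therefore measure the spread between these libraries, which may in part be technical.

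Library totals were 21.8 to 90.03 M counts (M, mega). Transcripts of the cardiomyocyte markers were present in all groups, with 12 of 13 listed markers found, 0 of them at 0 in any group. LamC itself averaged 149.1 ± 42.4 CPM in LamC RNAi libraries and 171.2 ± 33.6 CPM in attp2 libraries at 1 week (SD, n = 5 each), a log2 difference of −0.20 that did not pass the test (adjusted p = 0.628, edgeR). The group is therefore called the libraries labelled LamC RNAi. In 4 libraries, attp2 at 5 weeks replicates 3 and 4, LamC RNAi replicate 3 and attp2 at 1 week replicate 3, summed gut digestive enzyme transcripts exceeded 500 CPM. The sums were 17232, 872, 704 and 11978 CPM in that order. Results are given with and without these libraries where they change. Levels are in CPM (the count divided by the scaled library total in M), and comparisons between genes are in RPKM (CPM per kilobase of exon). A gene is called changed when the adjusted p of edgeR's quasi-likelihood test, over all genes tested, is under 0.05.

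Many of the named genes of chromosome 4 were higher in old attp2 hearts. At 5 weeks 17 of the 38 members tested were called higher than at 1 week and 0 were called lower, where 9.6% of all 10044 genes tested were called higher and 10.5% lower. At an unadjusted p under 0.05, 20 members were higher and 2 lower, and DESeq2 called 17 higher and 1, yellow-h, lower. Over all 10044 genes, 3244 had an unadjusted p under 0.05 in either direction, and DESeq2 called 1195 higher and 1351 lower. Of the 38, 31 had a positive log2 fold change, and their median was 0.30, against 0.03 over all genes. The libraries of both ages did not overlap for 14 members, all higher at 5 weeks, where 17.1% of all genes did not overlap in either direction. Without the 4 libraries with gut transcripts, 11 members were called higher and 1 lower, with a median of 0.25. The 6 calls lost were those of Pur-alpha, onecut, Rad23, Ephrin, PlexB and Hcf (adjusted p 0.0509 to 0.298).

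In attp2 the other genes of the chromosome had a similar median. Of 47 tested genes of chromosome 4 that are not members, 14 were called higher and 4 lower in attp2 at 5 weeks, with a median log2 fold change of 0.32. The medians of arms 2L, 2R, 3L, 3R and X in the same comparison lay between 0.02 and 0.05. No test of the list against other genes was made, and in bulk hearts fewer cells of a type and less RNA per cell cannot be told apart.

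**Figure D1:**
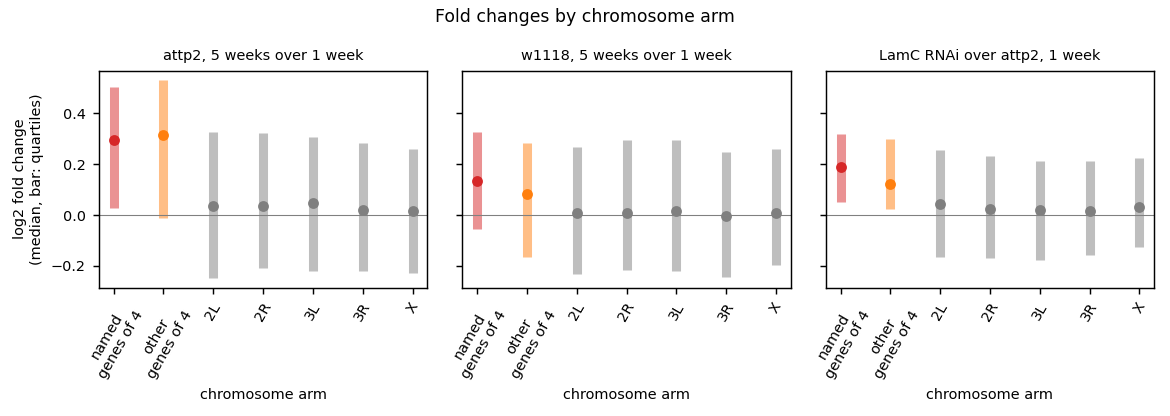
Median log2 fold change (point) and quartiles (bar) of the named genes of chromosome 4, of its other genes and of the genes of each other chromosome arm, for attp2 at 5 weeks over 1 week, w1118 at 5 weeks over 1 week, and LamC RNAi over attp2 at 1 week. Both chromosome 4 sets have a median near 0.3 in attp2 hearts with age, and the medians of all other arms lie within 0.05 of 0 in all 3 panels.

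In w1118 hearts fewer members were called. Of 39 members tested, 4 were called higher at 5 weeks and 0 lower, where 5.21% of 9631 genes were called higher and 3.7% lower. At an unadjusted p under 0.05, 11 members were higher and 2 lower, and DESeq2 called 7 higher and 1, CaMKII, lower. Over all 9631 genes, 2511 had an unadjusted p under 0.05 in either direction, and DESeq2 called 844 higher and 732 lower. The members' median log2 fold change was 0.13, against 0.01 over all genes, and 26 of 39 were positive. The ages did not overlap for 10 members, 9 of them higher and 1 lower, where 17.3% of all genes did not overlap. The members' median was 0.07 without replicate 4 of w1118 at 5 weeks. The 47 tested genes of chromosome 4 that are not members had a median of 0.08, with 3 called higher and 1 lower.

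Between the libraries labelled LamC RNAi and attp2 at 1 week, 2 of 38 members were called higher and 1 lower, where 0.866% of all genes were called higher and 1.54% lower. At an unadjusted p under 0.05, 14 members were higher and 1 lower, and DESeq2 called 5 higher and 1 lower. Over all 10044 genes, 1932 had an unadjusted p under 0.05 in either direction, and DESeq2 called 293 higher and 399 lower. The members' median log2 fold change was 0.19, against 0.03 over all genes, and 30 of 38 were positive. Without the 4 libraries with gut transcripts, 0 members were called higher and 1 lower, with a median of 0.17. The groups did not overlap for 4 members that were higher and 1 that was lower, where 5.0% of all genes did not overlap. The 47 tested genes of chromosome 4 that are not members had a median of 0.12, with 3 called higher and 2 lower. The medians of the other arms lay between 0.02 and 0.04. This comparison and that of age in attp2 share the 5 attp2 libraries at 1 week, so their values are not independent.

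The members' levels varied between libraries of a group. For each library the median over members was taken of the log2 deviation from the mean of the strain's 1-week libraries. It was 0.22, 0.16, 0.25, 0.26 and 0.44 in attp2 hearts at 5 weeks, 0.10, 0.09, 0.20, 0.25 and 0.23 in LamC RNAi libraries, and 0.02, −0.12, −0.06, 0.00 and 0.18 in attp2 hearts at 1 week. Replicate 5 of attp2 at 1 week was thus above replicate 2 of attp2 at 5 weeks and above 2 of the LamC RNAi libraries. In w1118 the medians were −0.01, 0.16, 0.06 and 0.30 at 5 weeks and −0.01, −0.03, 0.06 and 0.00 at 1 week, so 2 of the 4 old libraries lay within the range of the young ones.

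**Figure D2:**
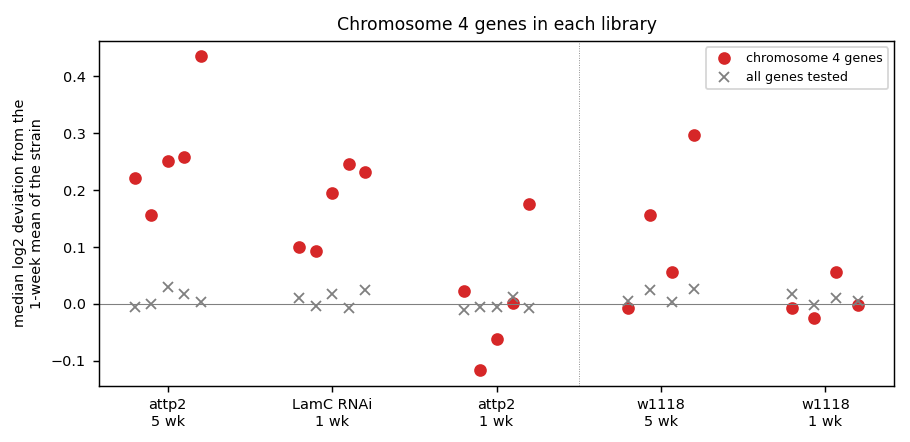
Median log2 deviation of the chromosome 4 members (filled points) and of all genes tested (crosses) in each library from the mean of the 1-week libraries of its strain. The attp2 5-week libraries lie between 0.16 and 0.44 for the members, and all genes stay within 0.03 of 0 in every library.

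Members took 0.230% to 0.307% of all counts in attp2 hearts at 5 weeks, 0.210% to 0.261% in the libraries labelled LamC RNAi and 0.184% to 0.231% in attp2 hearts at 1 week. All genes of chromosome 4 together, apolpp included, took 1.20% to 1.69% in attp2 at 5 weeks, 1.49% to 2.09% in the libraries labelled LamC RNAi and 1.24% to 1.72% in attp2 at 1 week, so that the shares of both attp2 ages overlap. Cell type markers differed with age too. The summed level of the 12 cardiomyocyte markers found was 5597 to 6407 CPM in attp2 at 5 weeks and 7586 to 10600.5 CPM at 1 week, with 5 of the 12 called lower. The 11 haemocyte markers summed to 3045 to 4213 CPM at 5 weeks and 6194 to 7394 CPM at 1 week in attp2, with 10 called lower and 1 higher. The 10 neuron markers summed to 103 to 140 CPM in attp2 at 5 weeks and 85.1 to 115.1 CPM at 1 week, with 1 of the 9 tested called higher. Only 3 of those 9 had a positive log2 fold change, and their median was −0.07. In w1118 the cardiomyocyte markers summed to 5538 to 8007 CPM at 5 weeks and 9117 to 10875.9 CPM at 1 week, and the neuron markers to 105.9 to 155.2 CPM and 73.3 to 152.8 CPM, with 0 of 8 neuron markers called by edgeR or DESeq2 and 0 at an unadjusted p under 0.05. The haemocyte markers summed to 3345 to 5084 CPM at 5 weeks and 6019 to 6224 CPM at 1 week in w1118, with 4 of 11 called lower and 1 higher. The 10 fat body and oenocyte markers found summed to 134942 to 194569 CPM in attp2 at 5 weeks and 181282 to 254716 CPM at 1 week, with 1 of 9 tested called lower. In w1118 the gut markers summed to 98.8 to 260.8 CPM at 5 weeks and 62.0 to 76.9 CPM at 1 week, with 2 of 8 tested called higher. In the libraries labelled LamC RNAi the haemocyte markers summed to 7980 to 10492.5 CPM, above all attp2 libraries at 1 week. The 9 ovary markers summed to 2.22 to 699.5 CPM there and 2.17 to 59.1 CPM in attp2 at 1 week, with 0 of 9 called. Over all genes tested, 9.6% were called higher and 10.5% lower with age in attp2, and 5.21% and 3.7% in w1118. The part of these markers in the members' values was not tested.

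**Figure D3:**
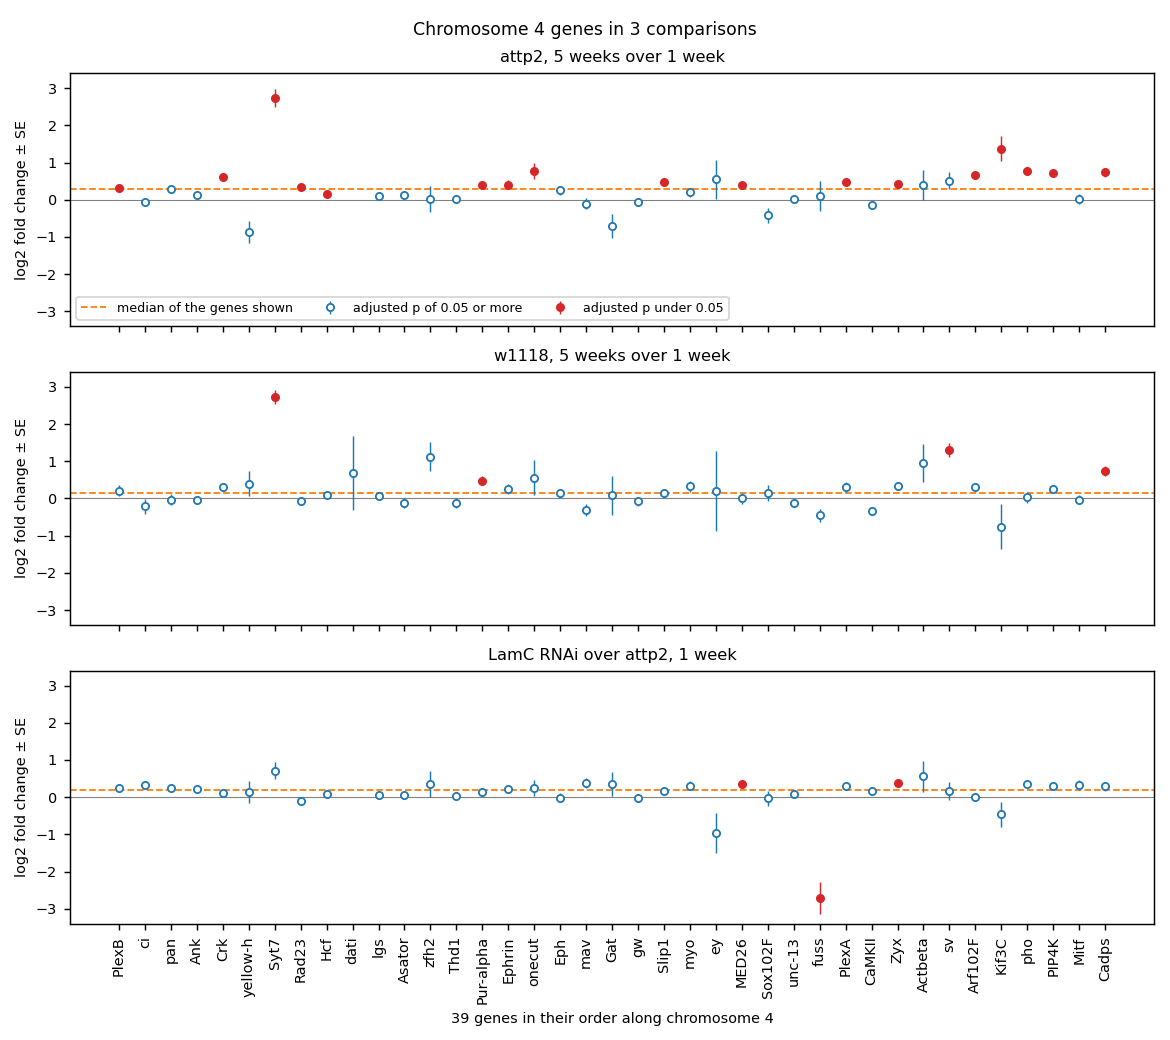
Log2 fold change ± SE of each member in its order along chromosome 4, for age in attp2 (top), age in w1118 (middle) and LamC RNAi over attp2 (bottom). Filled points passed an adjusted p of 0.05, the dashed line is the median of the genes shown. Syt7 stands highest in both upper panels and fuss lowest in the bottom panel.

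The largest change with age was that of Syt7, which encodes a synaptotagmin, a calcium sensor of vesicle exocytosis (positions 278685 to 306481, minus strand). Its level was 11.7, 7.76, 7.01, 9.76 and 14.3 CPM in attp2 at 5 weeks and 1.79, 1.55, 1.03, 1.75 and 1.48 CPM at 1 week. In w1118 it was 30.4, 33.4, 22.7 and 29.9 CPM at 5 weeks and 3.64, 4.07, 5.87 and 4.00 CPM at 1 week. Every old library was above every young library of its strain. The log2 fold change was 2.73 ± 0.25 (SE) in attp2 (adjusted p = 1.6e-05, edgeR) and 2.72 ± 0.18 in w1118 (adjusted p = 6.7e-05, edgeR), a fold of 6.65 and 6.61. The age effects differed by 0.03 on the log2 scale, with a 95% interval of −0.54 to 0.60. In the libraries labelled LamC RNAi, Syt7 stood at 2.71, 2.22, 2.95, 3.08 and 1.52 CPM, a log2 difference of 0.72 ± 0.24 from attp2 at 1 week that did not pass the test (adjusted p = 0.126, edgeR).

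Cadps encodes the activator protein for calcium-dependent secretion, which primes dense core vesicles. It stood at 65.0, 51.2, 52.4, 56.2 and 70.7 CPM in attp2 at 5 weeks and at 40.35, 35.3, 27.4, 33.1 and 41.3 CPM at 1 week, and in w1118 at 49.9, 40.7, 33.8 and 38.9 CPM at 5 weeks and 24.9, 21.3, 24.5 and 26.4 CPM at 1 week. The ages did not overlap in either strain. The log2 fold change was 0.74 ± 0.12 in attp2 (adjusted p = 0.00101) and 0.75 ± 0.13 in w1118 (adjusted p = 0.00895, both edgeR), with a difference between strains of 0.01 (95% interval −0.37 to 0.39).

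Of the 6 members of the synapse and calcium group, 3 were called higher in attp2 and 2 in w1118, where 9.6% and 5.21% of all genes were called higher. None was called lower by edgeR. At an unadjusted p under 0.05, 3 were higher and 1, Gat, lower in attp2, and 2 were higher and 1, CaMKII, lower in w1118, where DESeq2 called CaMKII lower. The third in attp2 was Slip1, a protein that binds the Slowpoke calcium-gated potassium channel, at 55.8 ± 5.86 CPM at 5 weeks and 39.8 ± 3.12 CPM at 1 week (SD, n = 5 each; log2 fold change 0.49 ± 0.09, adjusted p = 0.00148, edgeR). In w1118 the log2 fold change of Slip1 was 0.13 ± 0.12 (adjusted p = 0.505, edgeR). CaMKII, a calcium/calmodulin-dependent kinase, pointed the other way: in w1118 all 5-week libraries (69.7 to 91.9 CPM) were below all 1-week libraries (95.1 to 103.7 CPM), with a log2 fold change of −0.34 ± 0.11 that did not pass the test (adjusted p = 0.087, edgeR; 0.044 without replicate 4 at 5 weeks). The GABA transporter Gat had 1.95 ± 0.84 CPM in attp2 at 5 weeks and 3.17 ± 0.90 CPM at 1 week (SD, n = 5 each; adjusted p = 0.143, edgeR). It is the member called lower when the 4 libraries with gut transcripts are left out (log2 fold change −1.08, adjusted p = 0.0456). The vesicle priming factor unc-13 had a log2 fold change of 0.03 in attp2 and −0.13 in w1118, neither called.

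Of the 6 chromatin, transcription and RNA members, 4 were called higher in attp2 at 5 weeks and 1 in w1118, against the same 9.6% and 5.21% of all genes. The gene pho encodes a DNA-binding protein that recruits Polycomb complexes to their response elements. Its levels in attp2 were 29.5, 31.6, 31.9, 35.3 and 39.9 CPM at 5 weeks and 21.3, 18.4, 18.3, 18.2 and 22.9 CPM at 1 week, with no overlap (log2 fold change 0.76 ± 0.10, adjusted p = 2.77e-04, edgeR). In w1118 they were 26.4, 35.2, 32.7 and 33.9 CPM at 5 weeks and 30.85, 33.1, 37.0 and 24.3 CPM at 1 week, which overlap (0.03 ± 0.15, adjusted p = 0.916, edgeR). The libraries labelled LamC RNAi had 23.5, 23.7, 30.7, 24.96 and 23.9 CPM, a log2 difference from attp2 at 1 week of 0.35 ± 0.10 that did not pass the test (adjusted p = 0.0917, edgeR). All attp2 libraries at 1 week were below all other libraries; the w1118 table was scaled separately, so levels across the tables were not tested. The age effect in attp2 minus that in w1118 was 0.75 ± 0.18 and did not pass the test (adjusted p = 0.0592, edgeR), but did so without replicate 4 of w1118 at 1 week (0.0167) or replicate 5 of attp2 at 1 week (0.0448).

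Pur-alpha, which encodes a single-stranded nucleic acid binding protein, rose in both strains. It had 75.7, 73.9, 74.4, 81.1 and 92.7 CPM in attp2 at 5 weeks and 60.8, 50.0, 59.6, 63.0 and 67.2 CPM at 1 week, and 64.9, 82.8, 64.3 and 83.5 CPM in w1118 at 5 weeks and 53.1, 52.3, 56.8 and 49.4 CPM at 1 week. No ages overlapped. The log2 fold change was 0.40 ± 0.10 in attp2 (adjusted p = 0.0145) and 0.48 ± 0.12 in w1118 (adjusted p = 0.0369, both edgeR). The w1118 call is lost without any of the 4 libraries at 1 week or without replicate 2 or 4 at 5 weeks (adjusted p 0.0537 to 0.116). The attp2 call is lost without the libraries with gut transcripts (adjusted p = 0.0678).

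MED26, a subunit of the Mediator complex, had 70.1, 59.3, 59.7, 68.0 and 71.3 CPM in attp2 at 5 weeks and 51.9, 46.3, 47.5, 47.9 and 55.2 CPM at 1 week (log2 fold change 0.40 ± 0.08, adjusted p = 0.00411, edgeR). The libraries labelled LamC RNAi had 59.1, 56.9, 73.2, 64.2 and 62.6 CPM, again all above attp2 at 1 week (0.35 ± 0.08, adjusted p = 0.0422, edgeR). The LamC RNAi call was kept without replicate 5 of attp2 at 1 week and without replicate 2 of LamC RNAi, and lost without any of the other 8 libraries and without the libraries with gut transcripts (adjusted p 0.0514 to 0.232). In w1118 the log2 fold change of MED26 was 0.00 ± 0.14 (adjusted p = 0.999). Hcf, a transcriptional coregulator, had 83.7 ± 1.77 CPM at 5 weeks and 75.7 ± 2.62 CPM at 1 week in attp2 (SD, n = 5 each; log2 fold change 0.14 ± 0.04, adjusted p = 0.032, edgeR), a call that was kept without replicate 4 or 5 at 1 week or replicate 2 at 5 weeks and lost without any of the other 7 libraries. For gw, a core protein of microRNA silencing, and Thd1, a DNA glycosylase now named Tdg, the attp2 log2 fold changes were −0.06 and 0.03 and neither was called in any comparison.

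Among the 6 cytoskeleton and membrane trafficking members, 4 were called higher in attp2 (9.6% of all genes) and none was called in w1118 (5.21% of all genes called higher), where 3 had an unadjusted p under 0.05 and DESeq2 called Zyx. PIP4K, a phosphoinositide kinase, had 63.2, 56.5, 66.9, 66.5 and 80.6 CPM in attp2 at 5 weeks and 38.4, 37.2, 40.5, 39.5 and 47.5 CPM at 1 week (log2 fold change 0.72 ± 0.09, adjusted p = 1.74e-04, edgeR). In w1118 its levels were 64.6, 77.5, 66.1 and 70.0 CPM at 5 weeks and 61.3, 56.7, 63.4 and 51.6 CPM at 1 week. The w1118 ages did not overlap, and the log2 fold change of 0.26 ± 0.11 did not pass the test (adjusted p = 0.169, edgeR).

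Arf102F, a small GTPase of vesicle traffic, had the highest level per exon length of all members, 122 ± 13.7 RPKM in attp2 at 5 weeks and 77.1 ± 6.50 RPKM at 1 week (SD, n = 5 each). Its libraries read 110.3, 95.8, 122.5, 110.0 and 128.8 CPM at 5 weeks and 81.3, 73.9, 68.5, 66.2 and 68.6 CPM at 1 week in attp2 (log2 fold change 0.66 ± 0.10, adjusted p = 4.3e-04, edgeR). In w1118 the log2 fold change was 0.30 ± 0.11 (adjusted p = 0.116, edgeR), with no overlap of the ages.

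Kif3C, a kinesin family gene, had a low level, 1.78, 1.10, 0.985, 1.47 and 2.01 CPM in attp2 at 5 weeks and 0.815, 0.657, 0.478, 0.280 and 0.595 CPM at 1 week (log2 fold change 1.38 ± 0.34, adjusted p = 0.0111, edgeR). In w1118 it was at 0.136, 0.270, 0.406 and 1.01 CPM at 5 weeks and 1.06, 0.606, 1.06 and 0.416 CPM at 1 week, which overlap (−0.76 ± 0.61, adjusted p = 0.466, edgeR). The strain difference of 2.17 ± 0.67 was not called (adjusted p = 0.135, edgeR).

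Zyx, the LIM protein zyxin of cell adhesions, stood at 66.1, 64.9, 62.3, 64.1 and 78.9 CPM in attp2 at 5 weeks, 63.0, 62.5, 71.4, 69.4 and 62.5 CPM in the libraries labelled LamC RNAi and 55.9, 44.75, 44.5, 51.6 and 56.2 CPM in attp2 at 1 week. Both groups of libraries were above all attp2 libraries at 1 week. The log2 fold change was 0.41 ± 0.09 with age (adjusted p = 0.00513) and 0.38 ± 0.09 in the libraries labelled LamC RNAi (adjusted p = 0.0365, both edgeR). The LamC RNAi call was kept without replicate 1 or 5 of attp2 at 1 week and lost without any of the other 8 libraries and without the libraries with gut transcripts (adjusted p 0.0502 to 0.223). In w1118 the log2 fold change was 0.32 ± 0.10 (adjusted p = 0.0751, edgeR; 0.0225 by DESeq2). Zyx overlaps the opposite-strand lipoprotein gene apolpp by 96 exon bases. apolpp had 4551 ± 2528 CPM in attp2 at 5 weeks, 7159 ± 1621 CPM in the libraries labelled LamC RNAi and 5985 ± 1416 CPM in attp2 at 1 week (SD, n = 5 each), and neither comparison called it. The sources used here do not state the strand setting of the authors' counting. Reads in bases that overlapping genes share were therefore not told apart here. Of the members, 13 overlap another annotated gene on the opposite strand. Ank, which ties membrane proteins to the spectrin skeleton, and Asator, a tau-tubulin kinase, had attp2 log2 fold changes of 0.14 and 0.13, which did not pass the test.

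Of the 8 signalling members, 4 were called higher in attp2 at 5 weeks (9.6% of all genes) and none in w1118 (5.21%), where 3 had an unadjusted p under 0.05 and DESeq2 called Crk. Crk, an adaptor that links receptors to small GTPases, had 79.4, 58.3, 68.4, 68.7 and 88.4 CPM in attp2 at 5 weeks and 43.5, 42.5, 46.6, 52.4 and 53.5 CPM at 1 week (log2 fold change 0.61 ± 0.10, adjusted p = 0.00138, edgeR), and in w1118 0.31 ± 0.10 (adjusted p = 0.087). The ages did not overlap in either strain. PlexA, a semaphorin receptor, had 281 ± 25.1 CPM in attp2 at 5 weeks and 201 ± 17.1 CPM at 1 week (SD, n = 5 each; 0.48 ± 0.08, adjusted p = 0.00125, edgeR). It had 247 ± 23.0 CPM in the libraries labelled LamC RNAi, all above attp2 at 1 week, a log2 difference of 0.30 ± 0.08 that did not pass the test (adjusted p = 0.0766, edgeR). The other plexin, PlexB, had 25.2 ± 2.58 CPM at 5 weeks and 20.3 ± 3.11 CPM at 1 week, called at the margin (0.32 ± 0.10, adjusted p = 0.0486, edgeR). That call was kept without replicate 5 at 1 week or replicate 2 at 5 weeks and lost without any of the other 8 libraries. Ephrin, the ligand, rose by 0.41 ± 0.11 (adjusted p = 0.0222, edgeR), a call lost without replicate 2 at 1 week or replicate 3 or 5 at 5 weeks (adjusted p 0.0531 to 0.063). Its receptor Eph had a log2 fold change of 0.26 ± 0.12 and did not pass the test (adjusted p = 0.147, edgeR).

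The Activin-branch ligands were not called in any comparison. Actbeta was barely detected, at 0.420 ± 0.213 CPM in attp2 at 5 weeks and 0.316 ± 0.153 CPM at 1 week (SD, n = 5 each). For myo, which encodes myoglianin, the log2 fold change with age was 0.20 in attp2 and 0.33 in w1118. For mav it was −0.11 and −0.31. In the libraries labelled LamC RNAi mav had a log2 difference of 0.38 from attp2 at 1 week (adjusted p = 0.167, edgeR), the lowest adjusted p of these ligands in any comparison.

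Of the transcription factors of development, 1 of 10 was called higher in attp2, where 9.6% of all genes were, and 1 of 11 in w1118, where 5.21% were. These counts are near the shares over all genes. The attp2 call was onecut, a homeodomain factor, with 1.99 ± 0.34 CPM at 5 weeks and 1.16 ± 0.23 CPM at 1 week (SD, n = 5 each; log2 fold change 0.78 ± 0.21, adjusted p = 0.0175, edgeR), lost without replicate 5 at 5 weeks (adjusted p = 0.0513). The w1118 call was sv, shaven, a Pax family gene. It stood at 7.14, 8.65, 8.74 and 9.28 CPM at 5 weeks and 2.90, 3.79, 4.39 and 2.56 CPM at 1 week in w1118 (1.31 ± 0.19, adjusted p = 0.00421, edgeR). In attp2 sv had 2.70, 4.96, 3.69, 5.80 and 5.50 CPM at 5 weeks and 2.72, 3.68, 2.14, 3.50 and 3.90 CPM at 1 week, which overlap (0.51 ± 0.23, adjusted p = 0.144, edgeR). The difference between strains was −0.78 ± 0.33 (adjusted p = 0.267, edgeR).

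The Hedgehog effector ci had log2 fold changes of −0.06 in attp2 and −0.21 in w1118, pan of 0.28 and −0.03, and lgs of 0.10 and 0.08. None was called, though pan was in attp2 without replicate 5 at 1 week (0.34, adjusted p = 0.0333, edgeR). ci had 31.4 ± 3.05 CPM in the libraries labelled LamC RNAi and 25.1 ± 2.43 CPM in attp2 at 1 week (SD, n = 5 each), a log2 difference of 0.33 ± 0.09 that did not pass the test (adjusted p = 0.0619, edgeR) but did so without replicate 1 of attp2 (0.0279) or replicate 2 of LamC RNAi (0.0471). zfh2, a zinc finger homeodomain gene, had 4.90 ± 1.72 CPM in w1118 at 5 weeks and 2.25 ± 1.05 CPM at 1 week (SD, n = 4 each), with no overlap and an adjusted p of 0.101 (edgeR). It shares 2325 exon bases with the opposite-strand member Thd1, and reads in those shared bases were not told apart here either. In w1118 Thd1 had 104 ± 17.6 CPM at 5 weeks and 114 ± 6.97 CPM at 1 week. Mitf, a regulator of lysosomal genes, had log2 fold changes of 0.03 in attp2 and −0.03 in w1118. Sox102F, a SoxD family gene, had −0.41 ± 0.20 in attp2 (adjusted p = 0.178) and 0.14 in w1118. The Pax gene ey and the zinc finger gene dati were near the detection limit, with at most 1.20 and 0.67 CPM in any library.

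**Figure D4:**
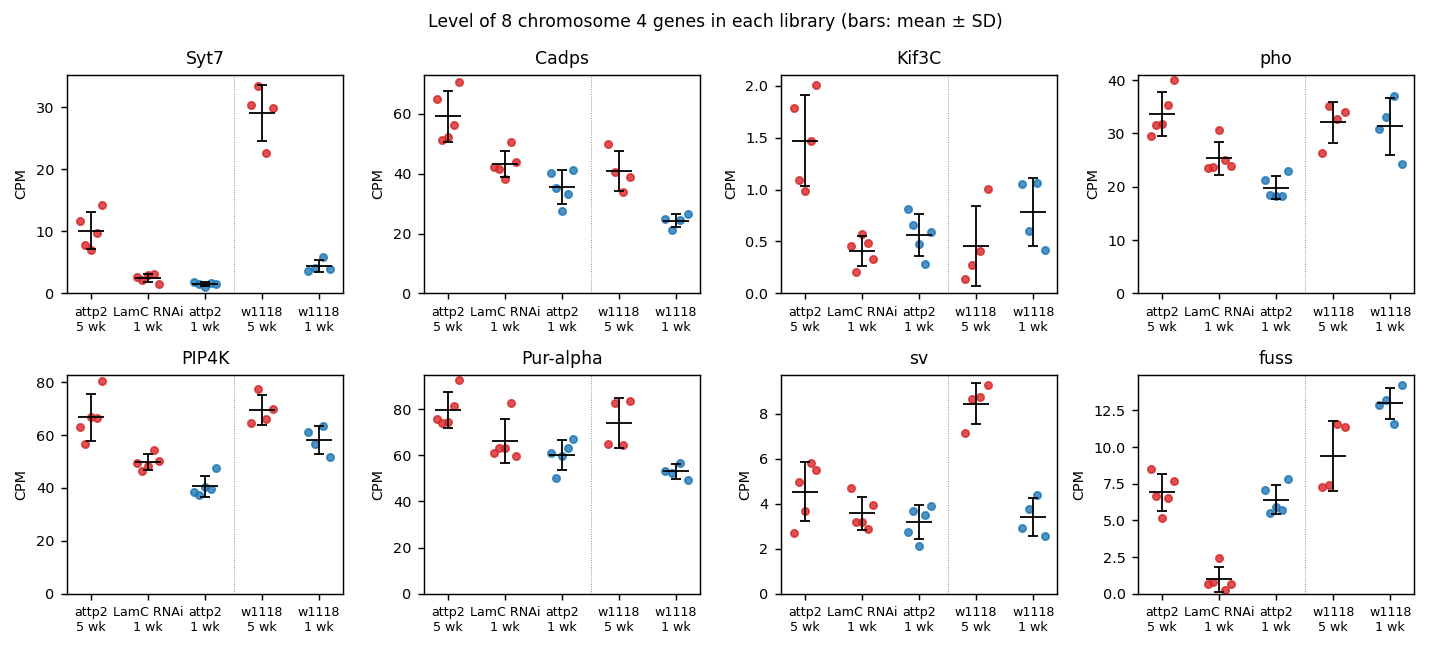
CPM of 8 members in each library (points), with mean ± SD (bars). Old and RNAi libraries are red, young control libraries blue; Syt7 and Cadps are high in both old groups, pho and PIP4K are low in attp2 at 1 week, and fuss is lowest in LamC RNAi.

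The member called lower was fuss, which encodes a Ski/Sno family corepressor (positions 962341 to 978489, minus strand). It had 0.669, 0.827, 2.45, 0.280 and 0.670 CPM in the libraries labelled LamC RNAi and 7.07, 5.50, 5.91, 5.73 and 7.81 CPM in attp2 at 1 week. No LamC RNAi library reached the lowest attp2 library. The log2 difference was −2.71 ± 0.43 (adjusted p = 0.0056, edgeR), a fold of 0.153. The call held in every fit without 1 library, with DESeq2 and without the libraries with gut transcripts (−3.42, adjusted p = 1.48e-04). Replicate 3 of LamC RNAi, the highest of the group, is one of those libraries. With only genes of a mean of at least 5 CPM kept, fuss was not tested. The log2 fold change of fuss with age was 0.11 in attp2 (adjusted p = 0.884) and −0.46 in w1118 (adjusted p = 0.134, both edgeR).

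The antisense gene CR44030, which overlaps fuss by 299 exon bases (positions 959675 to 962692), was lower too. It stood at 0.0881, 0.141, 0.498, 0.177 and 0.0258 CPM in the libraries labelled LamC RNAi and 4.13, 4.19, 3.60, 4.29 and 4.94 CPM in attp2 at 1 week (log2 difference −4.51 ± 0.54, adjusted p = 7.56e-04, edgeR). A second gene within fuss, sphinx, was near the detection limit, at 0 to 0.172 CPM in the libraries labelled LamC RNAi and 0.137 to 0.396 CPM in attp2 at 1 week (adjusted p = 0.195, edgeR). Whether these counts reflect the knockdown or a difference between the stocks cannot be told apart.

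The remaining members were Rad23, an adaptor of nucleotide excision repair and the proteasome, and yellow-h, of the yellow gene family. Rad23 had 177 ± 19.3 CPM in attp2 at 5 weeks and 140 ± 8.66 CPM at 1 week (SD, n = 5 each; log2 fold change 0.34 ± 0.09, adjusted p = 0.0118, edgeR) and 145 ± 9.77 CPM in w1118 at 5 weeks and 153 ± 4.29 CPM at 1 week (−0.08 ± 0.10, adjusted p = 0.68). The difference between strains was not called (adjusted p = 0.079, edgeR), but was without replicate 2 of attp2 at 5 weeks (0.0208). yellow-h had 0.554 ± 0.187 CPM in attp2 at 5 weeks and 1.01 ± 0.283 CPM at 1 week, −0.86 ± 0.29 on the log2 scale, which missed the threshold (adjusted p = 0.0528, edgeR; 0.038 without replicate 4 at 1 week).

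The age effect in attp2 minus that in w1118 was fitted for 10387 genes. Of 39 members, 0 were called where 0.761% of all genes were. The members' median difference was 0.18 on the log2 scale, against 0.04 over all genes. Of the members 30 of 39 were positive, against 54.0% of all genes. The 49 tested genes of chromosome 4 that are not members had a median of 0.24, with 34 positive. These shifts of the sets were not tested. By DESeq2 3 members were called higher (Kif3C, Rad23 and pho), where 190 of all genes were called higher and 245 lower. At an unadjusted p under 0.05 edgeR gave 11 members, 8 higher and 3 lower, where 1551 of the 10387 genes passed in either direction. The larger count of calls in attp2 than in w1118 is thus not shown by the adjusted edgeR test to be a difference between strains. Also, attp2 had 5 libraries a group and w1118 4. Across the 38 members with an estimate in both strains, 22 were positive in both and 4 negative in both, and 3 were called higher in both (Syt7, Cadps and Pur-alpha). Pearson's r between the strains' age effects over those members was 0.54, but 0.08 without Syt7, and Spearman's rho was 0.43. These are descriptions across genes of the same libraries.

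The members differ from other genes in length more than in level. Their median gene length was 11.6 kb, with a range of 1.16 to 44.9 kb, against 2.70 kb for the tested genes off chromosome 4 in w1118 and 2.66 kb in the attp2 fit. Median level per exon length was 10.1 RPKM in attp2 at 5 weeks and 8.78 RPKM at 1 week for the members, and 7.50 and 7.36 RPKM for all genes. Spearman's rho of a member's attp2 age effect was −0.04 with its gene length and −0.17 with its mean CPM. By position, the 19 members with the lower start coordinates had a median of 0.14 with 8 called, and the 19 with the higher ones 0.41 with 9 called, with a rho of 0.29 between age effect and start. Members that lie next to each other are not independent replicates.

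Transcripts of proteins that act on this chromosome were compared next. Of 14 tested genes for its binding proteins, histone methyltransferases and demethylases, only HP4, an HP1a-interacting protein gene on 3L, was called, higher in both strains at 5 weeks, where 9.6% of all genes in attp2 and 5.21% in w1118 were called higher. It had 12.8 ± 2.07 CPM in attp2 at 5 weeks and 8.67 ± 1.45 CPM at 1 week (SD, n = 5 each; log2 fold change 0.56 ± 0.15, adjusted p = 0.0142, edgeR) and 13.3 ± 1.75 CPM in w1118 at 5 weeks and 9.04 ± 0.40 CPM at 1 week (SD, n = 4 each; 0.55 ± 0.12, adjusted p = 0.0233, edgeR). The w1118 call is lost without replicate 1, 2 or 3 at 1 week or replicate 1 or 2 at 5 weeks (adjusted p 0.0576 to 0.0811). None of the 14 was called in the libraries labelled LamC RNAi, where 3 had an unadjusted p under 0.05 and DESeq2 called 1. Of all 10044 genes in that comparison, 1932 had an unadjusted p under 0.05, and DESeq2 called 293 higher and 399 lower. Pof had log2 fold changes of −0.13, −0.10 and −0.04 for age in attp2, age in w1118 and LamC RNAi, egg of 0.02, −0.08 and −0.12, and the HP1a gene of 0.05, −0.02 and 0.14, and none passed the test.

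Partners of the members encoded off chromosome 4 were looked at as well. Of 19 tested in attp2, 1 was called higher and 3 lower, where 9.6% of all genes were called higher and 10.5% lower, so the share called was near that over all genes. The Hedgehog receptor gene ptc was higher at 5 weeks (0.52 ± 0.11, adjusted p = 0.00643), and lower were the semaphorin Sema2a (−0.72 ± 0.22, adjusted p = 0.0315), the homeobox gene so (−0.62 ± 0.13, adjusted p = 0.00465) and the Activin type II receptor put (−0.21 ± 0.06, adjusted p = 0.0209, all edgeR). The call of Sema2a is lost without replicate 3 or 4 at 1 week or replicate 1 at 5 weeks (adjusted p 0.062 to 0.0808), and that of put without replicate 3 at 1 week (0.0545) and without the libraries with gut transcripts (−0.16, adjusted p = 0.212). In w1118 1 of 18 was called, the Slowpoke channel gene slo, at −0.94 ± 0.18 (adjusted p = 0.0119, edgeR). In the libraries labelled LamC RNAi, 0 of 19 were called, with 5 at an unadjusted p under 0.05 and 1 called by DESeq2.

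Among chromosome 4 genes outside the list, the largest called change with age was that of Ekar, a glutamate receptor gene, with 1.10 ± 0.43 CPM in attp2 at 5 weeks and 0.289 ± 0.104 CPM at 1 week (1.91 ± 0.39, adjusted p = 0.00363, edgeR), and 1.78 ± 0.62 CPM in w1118 at 5 weeks and 0.687 ± 0.131 CPM at 1 week (1.36 ± 0.36, adjusted p = 0.0442, edgeR). The w1118 call is kept without replicate 3 at 5 weeks and lost without any of the other 7 libraries (adjusted p 0.0537 to 0.128). In attp2, CG1909 (0.95), CG33941 (0.65) and Arl4 (0.63) were called higher and CR43957, antisense to ci, lower (−0.93). In w1118, CG31997 (0.95) and CG11076 (0.43) were called higher and RhoGAP102A lower (−0.65). In the libraries labelled LamC RNAi, CR44029, which lies antisense within unc-13 (0.61), CG33941, which overlaps Asator (0.48), and CG31998 (0.36) were called higher and ND-49, a complex I subunit gene, lower (−0.27). Leaving out 1 library ended at least 1 of these calls for CG1909, CR43957, CG11076, RhoGAP102A, CR44029, ND-49, CG31998 and, for LamC RNAi, CG33941. Without the libraries with gut transcripts the attp2 calls of CG1909 (adjusted p = 0.182) and CR43957 (0.0794) were lost, as were the LamC RNAi calls of CG31998 (0.118), CR44029 (0.151), ND-49 (0.203) and CG33941 (0.211, all edgeR).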

How the data were processed

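Hearts were taken from flies and polyadenylated RNA was sequenced with a stranded kit, per the labels' protocols. cutadapt, STAR, DESeq2 and the dm6 build are named in the submitters' processing notes. The sources used here state no versions, read counter, strand setting or annotation. Raw counts were deposited per gene symbol by the authors, in one table for w1118 and one for attp2 and LamC RNAi. The authors' log2 values were checked to equal log2 of count over DESeq2 size factor, plus 1, in every value to a tolerance of 0.001, and were not tested. Of 17104 symbols, 13264 matched a current and 3696 an older symbol of the BDGP6.54 annotation, which gave positions.

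Each table was fitted with edgeR 4.0.16 (R 4.3.3; limma 3.58.1): genes kept by filterByExpr, TMM scaling, quasi-likelihood test, two-sided, Benjamini-Hochberg over all genes tested, threshold 0.05. The w1118 libraries were fitted alone, the other 15 together, and the difference of age effects over the 18 control libraries. Of the members, dati was not kept in the attp2 fits. Intervals are 1.96 SE. CPM uses TMM-scaled totals, and library deviations add 0.1 CPM before log2. The method was tested on simulated data. Members, gene lists and tests were chosen with earlier results of these data known. All members are named, of the other chromosome 4 genes the 5 of largest called change per comparison, and of the regulator and partner lists those called. Same-group libraries differed by a chi-square of at least 62.9 per gene, so none was counted as a duplicate. With 21.8 to 90.03 M counts (M, mega) per library, members of low level were measured less precisely. In w1118 the SE was 0.52 for Gat, which had 1.82 CPM at 1 week. Precision was not tested against depth. Alternatives were DESeq2 size factors, the DESeq2 1.42.0 Wald test, other filters, a replicate block, only the groups compared, leaving out each library and, chosen after seeing the data, leaving out the 4 libraries with gut transcripts. No sequences were used here.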

Additional observations from a re-analysis of the deposited data

Results flagged for a closer look

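The level of each member in each group was searched for a library far from the rest (its gap to the nearest library over the range of the group, against Dixon's 95% limit). Of 195 groups of values 10 were picked out, where chance picks about 1 in 20. The number picked out is thus near the number from chance alone. Of these, 4 were in replicate 4 of LamC RNAi: PlexA at 287.2 CPM (others 232 to 242.9), Pur-alpha at 82.8 CPM (others 59.5 to 63.3), Thd1 at 148.4 CPM (others 126 to 131.5) and zfh2 at 16.4 CPM (others 4.42 to 7.36). Replicate 3 of LamC RNAi, one of the libraries with gut transcripts, was high in fuss at 2.45 CPM (others 0.280 to 0.827) and in pho at 30.7 CPM (others 23.5 to 24.96). In attp2 at 5 weeks, replicate 5 was high in Zyx at 78.9 CPM (others 62.3 to 66.1) and in ey at 1.20 CPM (others 0.270 to 0.523). Replicate 3 of the same group, also with gut transcripts, was high in Actbeta at 0.792 CPM (others 0.248 to 0.368). In attp2 at 1 week, replicate 3 had dati at 0.277 CPM (others 0 to 0.0699).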

How the results depend on the processing

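No member called changed direction in any alternative. Of the member results recomputed, 45 kept and 7 lost their call for age in w1118, 256 kept and 30 lost it for age in attp2 and 29 kept and 21 lost it for LamC RNAi; all calls lost in w1118 were of Pur-alpha and all lost for LamC RNAi were of MED26 and Zyx. For w1118, DESeq2 called 8 members and 15 chromosome 4 genes (8 in the main test), and fits without 1 library 3 to 4 members and 4 to 10 chromosome 4 genes. For age in attp2, fits without 1 library called 13 to 18 members and 25 to 35 chromosome 4 genes, and 23 without the libraries with gut transcripts. For LamC RNAi, DESeq2 called 6 members and 15 chromosome 4 genes, no filter 5 chromosome 4 genes, and the fit of only the groups compared 1 member and 2 chromosome 4 genes, as did the fit without libraries with gut transcripts; fits without 1 library called 1 to 3 members and 3 to 8 chromosome 4 genes. For the difference between strains, DESeq2 called 3, a mean of at least 5 CPM 1, and fits without 1 library 0 to 1, the same for all chromosome 4 genes. The cause of these differences was not tested.

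Same-numbered libraries did not deviate together in every pair (correlations −0.01 to 0.15 in w1118, −0.14 to 0.85 between ages in attp2, 0.07 to 0.60 between LamC RNAi and attp2), so the numbers were not taken as pairs. The highest values, 0.85 and 0.60, were those of replicate 3, whose libraries in attp2 at both ages and in LamC RNAi had gut transcripts. The submitters' library letters do not follow these numbers in every group, and pairing by letter was not examined. With a replicate block, members called were 3 for w1118 (5 chromosome 4 genes), 20 for attp2 (18 higher and 2 lower), 4 for LamC RNAi and 1 for the difference between strains (1 chromosome 4 gene). In attp2 the block added calls of Gat (−0.75, adjusted p = 0.0142) and yellow-h (−0.90, 0.0446), lower at 5 weeks, and of pan (0.28, 0.027) and Eph (0.26, 0.043), higher, and ended that of Hcf (0.0554); for LamC RNAi it added PIP4K (0.0447), for the difference between strains pho (0.0441), and in w1118 it ended Pur-alpha (0.0623). Of the 5 pairs of attp2 ages 4 correlated at 0.28 or more. Own-numbered libraries were the best match for 3 of 5 attp2 libraries at 1 week against those at 5 weeks. Members near 1 CPM or below in at least 1 group were Actbeta, dati, ey, fuss, Kif3C, onecut and yellow-h. Whether depth limited their values was not tested.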
